A study of Caenorhabditis elegans with 12 samples.

Results

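Long intergenic noncoding RNA genes (lincRNA genes, named linc- and a number in Caenorhabditis elegans) were followed in whole worms after knockdown of y54g2a.18. A gene was included if its name matched that pattern and if its reads summed to 10 or more over the 6 libraries of the experiment, a rule that does not use the difference between the groups. It kept 114 of the 170 lincRNA genes in the count table, out of 46891 named genes in all. Of the other 56, 30 were listed at 0 in every library and 26 had 1 to 9 counts. Just outside the rule were linc-167 with 8 counts and linc-52, linc-114, linc-147 and linc-153 with 7 each. Just inside were linc-33, linc-99, linc-133, linc-155 and linc-162 with 10 each.

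Polyadenylated RNA was sequenced from N2 worms, the standard wild-type strain. Genes were silenced by RNA interference (RNAi), the breakdown of a transcript that is triggered by double-stranded RNA of matching sequence. The groups used here are worms after RNAi of y54g2a.18, the homologue of the endoplasmic reticulum protein gene BCAP31, and worms after a control RNAi, with 3 libraries in each. Age, stage and sex are not stated in the labels used. Nor is it stated that libraries came from separate cultures, so every p-value reflects the spread among 6 libraries alone, and that spread may be technical. A second experiment of the series targeted rpoa-49, with 3 RNAi libraries and 3 control libraries. Its table held 418 counts in all and none of the lincRNA genes, so it was not analysed here.

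lincRNAs are transcripts without a known protein product whose genes lie between protein-coding genes. Many of them are spliced, capped and polyadenylated like messenger RNAs, which is why libraries of polyadenylated RNA contain them. As a class they are known for low levels and for expression limited to particular tissues or stages. A few long noncoding RNAs are known to act on chromatin, on neighbouring genes, on proteins or on ribosomes, but most linc genes of the worm have no assigned function.

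The RNAi libraries held 30096438 to 38306576 counts and the control libraries 34555880 to 39482828. The targeted gene was lower in the RNAi libraries, with 190, 128 and 90.2 CPM (counts scaled to a common library size by trimmed means, TMM) against 391, 358 and 409 CPM in the control libraries (log2 fold change -1.51, standard error 0.25, adjusted p = 0.0073 by edgeR's quasi-likelihood test). Ribosomal RNA took 0.0937, 1.31 and 2.02% of the counts of RNAi replicates 1, 2 and 3 and 1.03, 1.64 and 0.214% of those of control replicates 1, 2 and 3. Of the epidermal markers the cuticle collagen genes rol-6 and dpy-7 fell (log2 -2.12 and -1.88, adjusted p = 0.0027 and 0.0045). No marker of sperm, oocytes, yolk, intestine, muscle or neurons was called by edgeR, where 8.98% of all tested genes were. An unadjusted p under 0.05 was reached by 13 of 27 tested sperm, 3 of 11 oocyte and germline and 1 of 3 intestine markers. Over all tested genes 23.3% reached it. The RNAi range lay above the control range for 13 of 27 tested sperm markers, where it did so for 15.8% of all tested genes. Most of the tested sperm markers are genes of the msp family, so they are not independent of one another. The 31 sperm markers summed to 2027, 1266 and 1135 CPM in the RNAi libraries and to 1002, 968 and 1103 CPM in the control libraries. The 2 other epidermal markers, col-19 and lin-26, were listed at 0. The RNAi range also lay above the control range for 3 of 3 tested intestine markers (ratio of summed CPM 1.39) and 1 of 4 muscle markers (ratio 1.44), and below it for 4 of 11 tested oocyte and germline markers (ratio 0.777), where 14.6% of all tested genes were lower in this way. The part of these differences in the lincRNA values was not tested, and in whole worms fewer cells of a type and less RNA per cell cannot be told apart.

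The lincRNA genes that were listed at 0 were mostly genes that share their place with another gene. In the RefSeq annotation of WBcel235, 26 of the 30 genes at 0 (86.7%) overlapped another gene, and 19 of them overlapped a protein-coding gene. Of the 26 genes with 1 to 9 counts 11 overlapped another gene, and of the 114 genes with 10 or more counts 29 did (25.4%). By exons in the Ensembl annotation of WBcel235, 21 of the 30, 10 of the 26 and 29 of the 114 genes overlapped an exon of another gene. linc-143, which overlaps the insulin receptor gene daf-2, linc-104, which overlaps the RNAi helicase gene eri-6, and linc-10, which overlaps F39E9.6, were at 0 in all 6 libraries. Of these, linc-143 and linc-104 shared no exon sequence with another gene, and linc-10 did. Conversely, 4 of the 104 linc genes that overlap no other gene were at 0, namely linc-14, linc-34, linc-136 and linc-160. How reads that fall on several genes were assigned is not stated in the labels or notes used. Some essential protein-coding genes were also at 0, among them the exosome subunit gene exos-9, and 47.2% of protein-coding genes with 2 or more RefSeq transcripts were at 0, against 6.86% of those with 1. A 0 is therefore reported only as the listed value, and the part of overlap in it was not tested. Of all linc genes 163 of 170 have 1 RefSeq transcript.

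**Figure D1:**
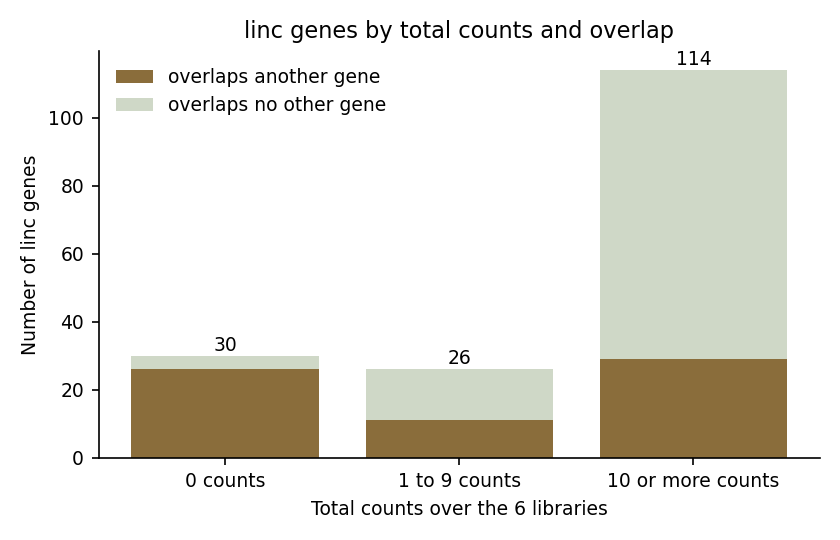
Number of linc genes (vertical axis) by total counts over the 6 libraries (horizontal axis), with genes that overlap another RefSeq gene in brown and the others in pale green. The bar at 0 counts is almost all brown (26 of 30), and the bar of the 114 genes with 10 or more counts is mostly pale (29 overlap).

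Together the 114 lincRNA genes made up a small part of the polyadenylated RNA in every library. They took 0.0378, 0.0312 and 0.0352% of all counts in RNAi replicates 1, 2 and 3 and 0.0349, 0.0369 and 0.0375% in control replicates 1, 2 and 3. Their summed level was 385, 317 and 329 CPM in the RNAi libraries and 352, 363 and 389 CPM in the control libraries. The groups overlapped, with means of 344 ± 36.3 CPM after y54g2a.18 RNAi and 368 ± 18.7 CPM after control RNAi (SD, n = 3 each), a ratio of 0.935. A few genes carried most of this sum: linc-8 alone held 23.0% of it, the 4 most abundant genes 57.3% and the 10 most abundant 72.4%. Only 7 genes averaged 10 CPM or more over the 6 libraries, 36 averaged 1 to 10 CPM and 71 less than 1 CPM. Each library showed counts for 104 to 109 of the 114 genes, and 89 genes had counts in all 6 libraries.

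The leading gene in CPM was linc-8, on chromosome II. It stood at 77.6, 67.7 and 79.4 CPM in the RNAi libraries and at 83.3, 88.5 and 95.1 CPM in the control libraries. Each RNAi library lay below each control library, but the difference was small (log2 -0.25, standard error 0.13) and did not pass (adjusted p = 0.30). linc-8 overlaps the noncoding genes F59H5.4 and F59H5.5. In the Ensembl annotation its exons overlap those of 1 other gene. Since the strand setting is unknown, reads shared there cannot be assigned with certainty. The next gene, linc-7 on the X chromosome, was at 70.1, 44.0 and 24.6 CPM in the RNAi libraries and at 45.3, 51.3 and 60.3 CPM in the control libraries. Its RNAi libraries spanned the whole control range, and its log2 fold change of -0.18 (adjusted p = 0.80) became 0.12 without RNAi replicate 3.

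linc-22 was the only one of the 4 most abundant genes that was higher in every RNAi library. It had 39.99, 48.0 and 52.1 CPM in the RNAi libraries and 32.7, 33.6 and 30.04 CPM in the control libraries. The fold was 1.45 (log2 0.54, standard error 0.15), with an adjusted p of 0.069, so it missed the threshold of 0.05 in edgeR. It passed in DESeq2 (adjusted p = 0.045), without RNAi replicate 1 (adjusted p = 0.019) and with the ribosomal RNA share as a covariate (adjusted p = 0.012), and over the 16 alternatives its adjusted p ran from 0.012 to 0.27. linc-22 overlaps a snoRNA gene, F47E1.19, and a pair of piRNA genes, so part of its reads cannot be assigned with certainty. linc-15, also on the X chromosome, was lower in every RNAi library, at 34.0, 20.2 and 33.1 CPM against 36.6, 35.5 and 40.3 CPM in the control libraries (log2 -0.36, adjusted p = 0.36).

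Levels of different genes can be compared only per length. Divided by exon length in the Ensembl annotation of WBcel235, which may differ from the annotation the authors counted with, the order of the 10 most abundant genes changed. linc-15, with 0.338 kb of exon, averaged 86.1 ± 22.8 CPM per kb in the RNAi libraries and 111 ± 7.47 in the control libraries (SD, n = 3 each). linc-8 averaged 85.3 ± 7.15 CPM per kb in the RNAi libraries and 101 ± 6.75 in the control libraries, so the first 2 places did not differ beyond their spread. linc-7 followed at 40.9 ± 20.2 CPM per kb in the RNAi libraries and 46.3 ± 6.68 in the control libraries, and linc-37 at 40.1 ± 7.41 and 31.3 ± 1.32 in the RNAi and control libraries; in the RNAi libraries these 2 levels lay within each other's spread. Among these 10 genes linc-22, whose exons add up to 4.07 kb, came ninth by mean level per kb, at 11.5 ± 1.52 CPM per kb in the RNAi libraries and 7.89 ± 0.458 in the control libraries.

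**Figure D2:**
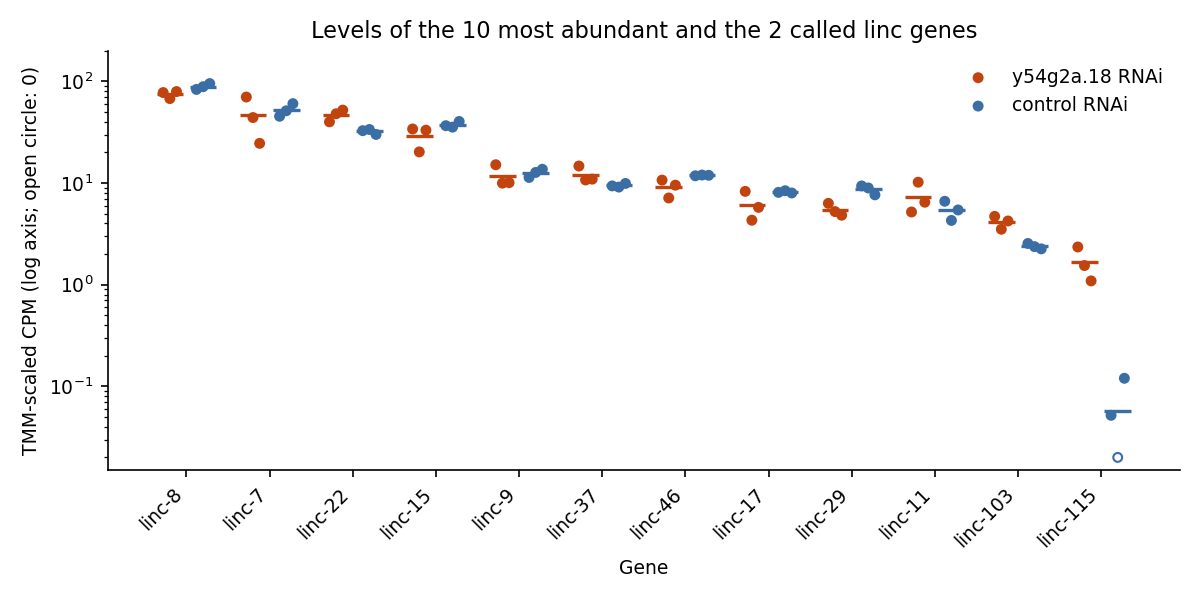
TMM-scaled CPM on a log axis (vertical) for the 10 lincRNA genes with the highest mean CPM and for linc-103 and linc-115 (horizontal), with RNAi libraries in orange left of control libraries in blue; points are libraries, bars are group means and an open circle marks 0 counts. The groups lie close together for most genes, and linc-115 stands apart, at 1.09 to 2.35 CPM in the RNAi libraries and 0 to 0.12 CPM in the control libraries.

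The comparison of the knockdown with its control asked which lincRNA genes respond to loss of y54g2a.18, in a study of how that gene influences ageing. Of the 114 genes, 77 passed the expression filter of the test, and 2 of these were called, both higher: linc-115 and linc-103. That is 2.60% of the tested lincRNA genes, where 8.98% of all 14290 tested genes were called (3.97% higher and 5.01% lower). No lincRNA gene was called lower in edgeR. At an unadjusted p under 0.05 there were 7 higher and 6 lower, 16.9% of the 77 against 23.3% of all tested genes. DESeq2 called 3 higher and 4 lower, where it called 5.78% and 6.62% of all genes, and limma-voom called 1 higher and 0 lower, where it called 3.4% and 5.13%. The counts depended on single libraries, as did those over all genes. Without RNAi replicate 1 edgeR called 2 higher and 4 lower (linc-17, linc-21, linc-27 and linc-29) of 85 tested lincRNA genes, where it called 6.24% and 8.11% of all genes. It called linc-115 alone without RNAi replicate 3, where 3.45% of all genes were higher and 4.3% lower, and without control replicate 1, 2 or 3, where 1.54, 1.58 and 1.65% of all genes were higher and 2.9, 3 and 2.9% lower. Without RNAi replicate 2 it called the same 2 lincRNA genes, where 4.5% of all genes were higher and 5.16% lower.

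linc-115, a gene on the X chromosome that overlaps no other gene, had 86, 58 and 35 counts in the RNAi libraries and 2, 0 and 4 counts in the control libraries. These are 2.35, 1.54 and 1.09 CPM in the RNAi libraries and 0.0519, 0 and 0.12 CPM in the control libraries, so the gene was near the limit of detection after control RNAi and low but present in every RNAi library. The fitted difference was 28.9-fold (log2 4.85, standard error 0.68, adjusted p = 0.0033). It passed in all 16 alternatives that refit the test, with adjusted p from 3.17e-09 to 0.0217. The size is less certain than the call, since it rests on 6 control counts: the log2 fold change was 4.25 without control replicate 2 and 5.85 without control replicate 3. linc-115 passed the expression filter through the RNAi libraries. It was also called when every gene with 10 or more counts in total was tested (adjusted p = 0.0029). That filter, like the rule for inclusion, was met through its 179 RNAi counts, since its 6 control counts alone fall short. The second filter is therefore no independent support for the call. Its nearest protein-coding genes, the nuclear hormone receptor gene nhr-255 and the chemoreceptor gene srxa-9, were themselves near 0. nhr-255 had 10, 12 and 6 counts in the RNAi libraries and 6, 8 and 6 in the control libraries, and srxa-9 had 2, 0 and 2 counts in the RNAi libraries and 5, 2 and 0 in the control libraries. Neither passed the expression filter. On the side of nhr-255 the piRNA gene 21ur-15505 lies nearer still, and it was listed at 0.

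linc-103, also on the X chromosome and without an overlapping gene, was at 4.70, 3.51 and 4.23 CPM in the RNAi libraries and at 2.54, 2.37 and 2.25 CPM in the control libraries. The lowest RNAi library lay above the highest control library. Means were 4.15 ± 0.598 CPM after y54g2a.18 RNAi and 2.39 ± 0.147 CPM after control RNAi (SD, n = 3 each), a 1.74-fold difference (log2 0.80, standard error 0.20, adjusted p = 0.0485). It did not pass in 10 of 16 alternatives. Among these were size factors of DESeq2 (adjusted p = 0.0501), limma-voom (0.0581) and the omission of RNAi replicate 1 (0.0614), RNAi replicate 3 (0.0897) or control replicate 1, 2 or 3 (0.167, 0.183 and 0.192). The log2 fold change stayed between 0.70 and 0.90. With the replicate number as a block the adjusted p was 0.126. Its neighbours did not pass. The noncoding gene W05H9.3 was at 245, 299 and 249 CPM in the RNAi libraries and 234, 222 and 233 CPM in the control libraries (adjusted p = 0.41). W05H9.4 had an adjusted p of 0.49 and got-2.2, an aspartate aminotransferase gene, one of 0.33.

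**Figure D3:**
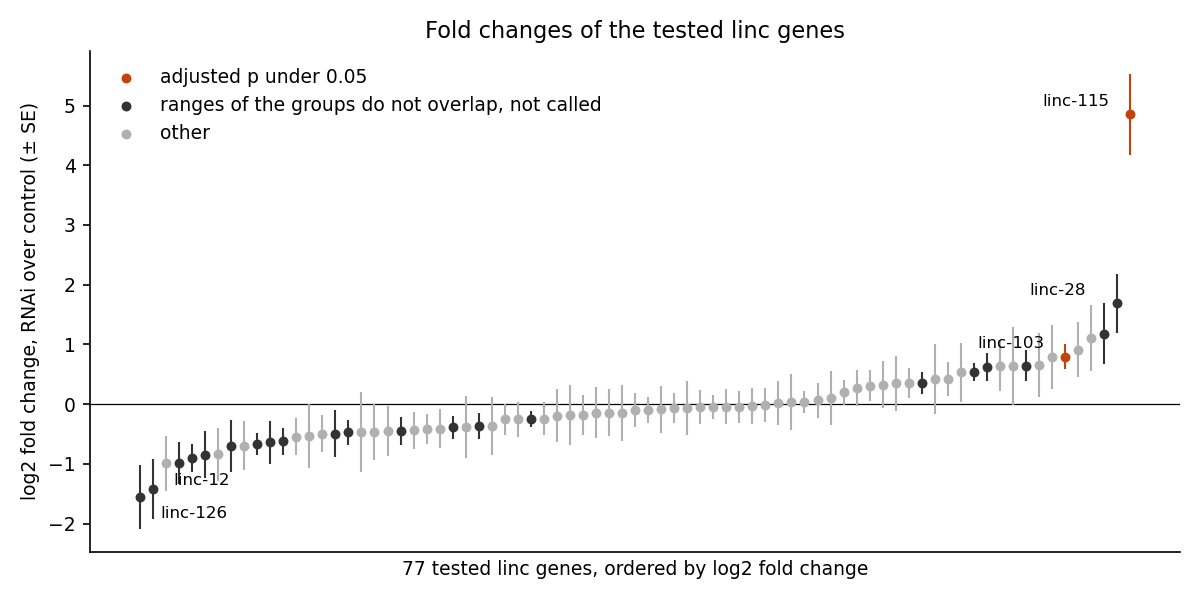
log2 fold change, RNAi over control, with its standard error (vertical axis) for the 77 tested lincRNA genes in order of fold change (horizontal axis); called genes are orange, genes whose groups do not overlap but were not called are black, and the rest grey. Most genes lie within 1 of 0, and linc-115 at 4.85 lies far above linc-28 at 1.69.

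Most fold changes were under 2-fold, and they were somewhat more often negative. The log2 fold change was below 0 for 49 of the 77 genes and above 0 for 28. Over all 14290 tested genes it was below 0 for 6870 and above 0 for 7420. The median of all tested genes was 0.02, and that of the lincRNA genes was -0.10. This median was -0.31 without RNAi replicate 1, -0.20 without RNAi replicate 3, -0.23 without control replicate 1 and -0.05 without RNAi replicate 2. Without the genes that overlap another gene in RefSeq it was -0.18. A change of 2-fold or more in either direction was fitted for 6 genes (7.79%), against 10.7% of all tested genes. The ranges of the 2 groups did not overlap for 8 higher and 15 lower lincRNA genes, 29.9% of those tested, which is close to the 30.4% of all tested genes (15.8% higher and 14.6% lower).

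Among the lower genes linc-27, on chromosome II, came closest to the threshold. It had 1.83, 1.596 and 1.49 CPM in the RNAi libraries and 2.46, 3.14 and 3.601 CPM in the control libraries. All RNAi libraries lay below all control libraries, and the fold was 1.87 lower (log2 -0.90, adjusted p = 0.0516, over the alternatives from 0.024 to 0.21). It was called lower in 4 of 16 alternatives: in DESeq2, with a filter of 1 CPM in 3 libraries, without RNAi replicate 1 and with the ribosomal RNA share as a covariate. linc-29, among the 10 most abundant genes, was at 6.31, 5.24 and 4.82 CPM in the RNAi libraries and at 9.37, 8.95 and 7.65 CPM in the control libraries (log2 -0.66, adjusted p = 0.068). Its adjusted p ran from 0.029 to 0.28 over the alternatives, with calls in DESeq2, without RNAi replicate 1 and with the ribosomal RNA share as a covariate. DESeq2 also called linc-12 and linc-126, which had the lowest fold changes of the 77 genes and wide spread. linc-12 was at 1.86, 1.78 and 0.374 CPM in the RNAi libraries and at 2.65, 3.51 and 4.68 CPM in the control libraries (log2 -1.42, standard error 0.50, adjusted p = 0.13 in edgeR). linc-126 had 4, 29 and 14 counts in the RNAi libraries and 45, 54 and 46 in the control libraries (log2 -1.55, standard error 0.54, adjusted p = 0.12 in edgeR). In both genes 1 RNAi library lay far below the other two, replicate 3 for linc-12 and replicate 1 for linc-126. linc-126 passed the expression filter through its control libraries, since its RNAi counts alone fall short.

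On the higher side linc-28, linc-117 and linc-68 had fitted changes above 2-fold at very low counts. linc-28 had 11, 19 and 11 counts in the RNAi libraries and 3, 5 and 5 in the control libraries (log2 1.69, adjusted p = 0.074). linc-117 had 16, 13 and 14 counts in the RNAi libraries and 4, 12 and 4 in the control libraries (log2 1.18, adjusted p = 0.21). Both linc-28 and linc-117 passed the expression filter through their RNAi libraries, since their control counts alone fall short. For linc-68 the groups overlapped, with 44, 10 and 20 counts in the RNAi libraries and 14, 12 and 10 in the control libraries (log2 1.11, adjusted p = 0.27). linc-96 and linc-53, both overlapping noncoding genes, were 1.54-fold and 1.57-fold higher without overlap of the groups (adjusted p = 0.16 and 0.17).

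The remaining genes among the 10 most abundant did not pass either. linc-37 was at 14.7, 10.7 and 10.9 CPM in the RNAi libraries and at 9.37, 9.12 and 9.90 CPM in the control libraries (log2 0.36, adjusted p = 0.30). It overlaps no other gene in RefSeq, but in the Ensembl annotation its exons overlap those of 1 other gene. linc-46 was at 10.7, 7.13 and 9.52 CPM in the RNAi libraries and at 11.8, 11.99 and 11.9 CPM in the control libraries (log2 -0.38, adjusted p = 0.28). Both genes had groups that did not overlap, in opposite directions. linc-9, linc-17 and linc-11 had groups that overlapped, with log2 fold changes of -0.10, -0.42 and 0.42 and adjusted p of 0.83, 0.37 and 0.43. linc-9 averaged 11.7 ± 2.95 CPM in the RNAi libraries and 12.6 ± 1.165 CPM in the control libraries (SD, n = 3 each).

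The precision of these tests followed the level of the genes. The median lincRNA gene tested had 1.32 CPM, against 9.43 CPM over all tested genes, and the median standard error of the log2 fold change was 0.35 against 0.23. It was 0.20 for the 7 genes of 10 CPM or more, 0.28 for the 36 genes from 1 to 10 CPM and 0.46 for the 34 tested genes under 1 CPM. For a gene under 1 CPM a missed threshold does not show that its level was the same in the 2 groups.

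**Figure D4:**
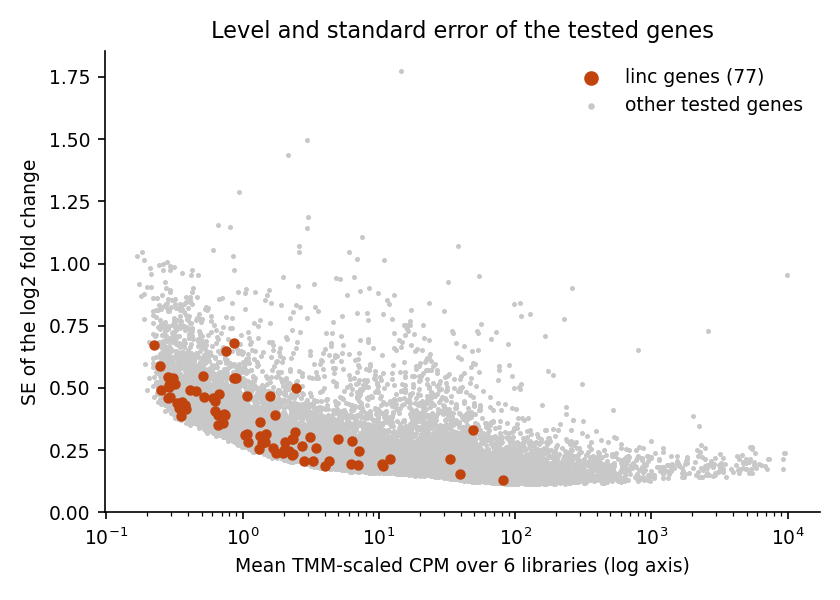
Standard error of the log2 fold change (vertical axis) against mean TMM-scaled CPM on a log axis (horizontal) for the 77 tested lincRNA genes in orange and the other tested genes in grey. Most orange points lie at the left, where standard errors are largest, with medians of 0.46 under 1 CPM and 0.20 at 10 CPM or more.

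The 37 lincRNA genes that did not pass the expression filter had 10 to 66 counts in total. In 4 of them, linc-54, linc-97, linc-128 and linc-159, every RNAi library lay above every control library after scaling, and in linc-120 and linc-168 every one lay below. Among all 2545 genes with 10 or more counts that did not pass the filter, 8.49% lay above and 8.13% below in this way. linc-54 had 11, 6 and 13 counts in the RNAi libraries and 0, 4 and 4 in the control libraries. linc-128 had 4, 5 and 5 counts in the RNAi libraries and 1, 0 and 0 in the control libraries. linc-168 had 4, 3 and 2 counts in the RNAi libraries and 11, 14 and 8 in the control libraries. linc-54 and linc-128 met the rule for inclusion only with their RNAi counts, and linc-168 only with its control counts. linc-155 was the only one of the 114 genes with counts in 1 group alone, and all 10 of its counts came from control replicate 2. When every gene with 10 or more counts was tested, none of these 37 genes was called, and linc-115 was the only call among the 114. Over all genes 1254 of 16835 were called in that setting.

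Fold changes of lincRNA genes and of the protein-coding genes beside them were only weakly related. Neighbours were the nearest protein-coding gene on each side, leaving out genes that overlap the lincRNA gene. For 72 of the 77 tested genes at least 1 of these was itself tested, which gave 118 pairs with 112 different neighbours. Across these pairs the log2 fold changes of the lincRNA gene and its neighbour correlated at r = 0.04 (Spearman's rho 0.08), and 52.5% had the same sign. By strand, r was -0.07 and rho -0.07 for the 55 pairs on the same strand, with 49.1% of the same sign. For the 63 pairs on opposite strands r was 0.12 and rho 0.23, with 55.6% of the same sign. Over 8416 pairs of adjacent protein-coding genes r was 0.24 and rho 0.20, with 57.5% of the same sign. The lincRNA fold changes were less precise (median standard error 0.35 against 0.23 over all tested genes), so these correlations are not compared at like precision. These values describe genes measured in the same 6 libraries and are not independent of one another. Of the 112 neighbours 4 were called higher and 3 lower, 6.25% against 9.11% of all tested protein-coding genes.

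Of the tested lincRNA genes, 6 lie beside at least 1 protein-coding gene that was called. On chromosome IV linc-21 and linc-41 both lie between a pair of cuticle collagen genes, dpy-13, which encodes a collagen needed for body length, and col-34. dpy-13 was at 147, 214 and 65.6 CPM in the RNAi libraries and at 505, 438 and 531 CPM in the control libraries, a 3.46-fold fall (adjusted p = 0.018). col-34 fell 2.43-fold (adjusted p = 0.013). Between them, linc-21 was at 3.22, 1.38 and 1.68 CPM in the RNAi libraries and at 2.67, 2.82 and 2.88 CPM in the control libraries (log2 -0.41, adjusted p = 0.50, called lower without RNAi replicate 1 at 0.045). linc-41 was at 0.710, 0.479 and 0.560 CPM in the RNAi libraries and at 0.311, 0.299 and 0.780 CPM in the control libraries (log2 0.35, adjusted p = 0.71). In both lincRNA genes the RNAi and control libraries overlapped. linc-107 lies between C30G12.4, which fell 3.55-fold (adjusted p = 0.00093), and C30G12.2, which rose 3.66-fold (adjusted p = 0.015), and its own log2 fold change was 0.42 (adjusted p = 0.73). linc-96 (log2 0.62, adjusted p = 0.16) lies beside cyp-14A5 on the same strand, which rose 1.49-fold (adjusted p = 0.027). linc-69 (log2 -0.045, adjusted p = 0.94) lies beside B0507.9, which rose 3.04-fold (adjusted p = 0.013). linc-9 (log2 -0.099, adjusted p = 0.83) lies beside F21A9.2, which rose 1.84-fold (adjusted p = 0.0485). The differences between each lincRNA gene and its neighbours were not tested.

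**Figure D5:**
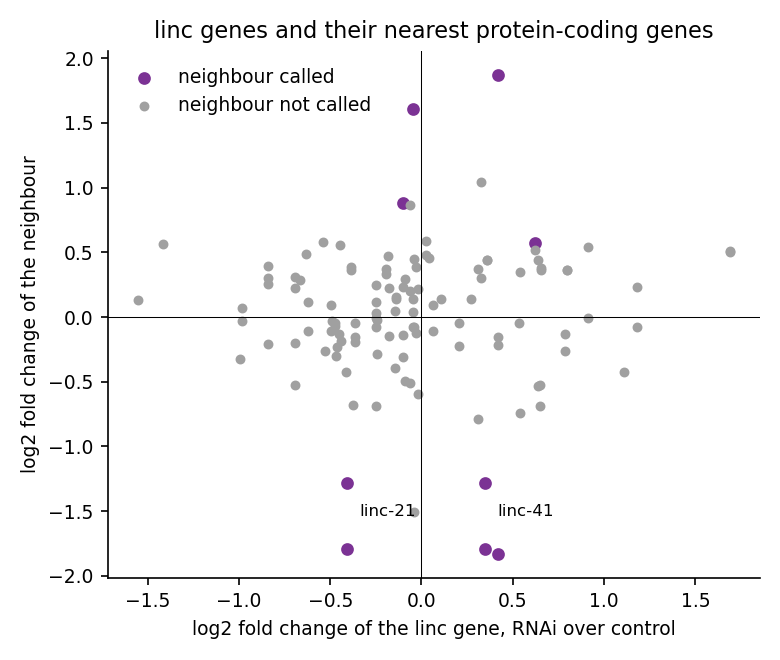
log2 fold change of the nearest non-overlapping protein-coding gene (vertical axis) against that of the lincRNA gene (horizontal axis), RNAi over control, for 118 pairs. Purple points are neighbours that were called. Over all pairs the points show almost no slope (r = 0.04). The neighbours of linc-21 and linc-41 lie low while these genes lie near 0. linc-115 has no tested neighbour and is not shown.

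Part of the variation within groups was shared. RNAi replicate 1 and control replicate 3 had the least ribosomal RNA of their groups. In 24 of the 77 tested lincRNA genes (31.2%) both of these libraries had the highest CPM of their group, against 21.5% of all tested genes, and in 6 (7.79%) both had the lowest, against 22.1%. linc-7 followed this order, with 70.1 CPM in RNAi replicate 1 and 60.3 CPM in control replicate 3. No test of this difference was made.

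Both called genes lie on the X chromosome, which holds 33 of the 170 linc genes and 14 of the 77 tested ones. The median log2 fold change of those 14 was -0.16, where that of all 2022 tested X-linked genes was 0.11, and 5 of the 14 were above 0. Elsewhere the median ran from -0.45 on chromosome IV (11 genes) to 0.53 on chromosome V (9 genes). Whether chromosomes differ was not tested.

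Other long noncoding RNAs with names of their own, 3 in all, did not pass either. tts-1, which is known from long-lived worms and binds ribosomes, was at 11431, 6898 and 12561 CPM in the RNAi libraries and at 8336, 8773 and 8562 CPM in the control libraries (log2 0.27, adjusted p = 0.56). Its RNAi libraries lay on both sides of the control range. rncs-1, a noncoding RNA of the intestine and epidermis induced by starvation, was lower in each RNAi library, at 110, 119 and 80.6 CPM against 157, 133 and 182 CPM in the control libraries (log2 -0.61, standard error 0.19, adjusted p = 0.085). lep-5, which acts in the timing of male tail maturation, was at 452, 299 and 313 CPM in the RNAi libraries and at 364, 329 and 388 CPM in the control libraries (log2 -0.02, adjusted p = 0.96). Of the 57 antisense RNA genes named anr, 41 were listed at 0, 9 had 10 or more counts and 5 were tested, with 0 called in edgeR and 1 at an unadjusted p under 0.05. Over all tested genes 8.98% were called and 23.3% had an unadjusted p under 0.05, so 1 of 5 is near the share of all genes. The anr gene with such a p, anr-24, averaged 2.43 ± 0.573 CPM in the RNAi libraries and 4.33 ± 0.380 CPM in the control libraries (SD, n = 3 each, log2 -0.83, adjusted p = 0.065).

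Genes of the machinery that ends, trims or destroys noncoding transcripts were looked at beside the lincRNA genes. Their lists are short, and 8.98% of all tested genes were called and 23.3% had an unadjusted p under 0.05. The RNA exosome, which degrades RNA from its 3′ end, had 9 tested members of 14 listed, with 3 at 0, a median log2 fold change of -0.19, 0 called in edgeR and 0 at an unadjusted p under 0.05. Its members exos-2 and exos-4.2 were lower in every RNAi library, as were 14.6% of all tested genes, with adjusted p of 0.46 and 0.42. Nonsense-mediated decay, which removes transcripts with early stop codons, had 5 tested of 9 with a median of -0.09, and Integrator, which cleaves nascent noncoding RNAs, had 7 tested of 13 with a median of -0.15. In both lists 4 members were at 0, 0 were called in edgeR and 0 had an unadjusted p under 0.05. The median of all tested genes was 0.02.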

How the data were processed

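The deposited values are raw counts of reads per gene in each library, not normalized by the authors. Per the submitters' processing notes, which give neither roles nor an order, the tools were HISAT2 2.2.1, DESeq2 1.16.1, FastQC 0.11.9 and featureCounts 1.28.1. Genome build, annotation and strand setting were not given in the sources used here. Of values from 1 to 20, 65.7% were even in lincRNA genes and 71.5% over all genes. Whether the 2 mates of a pair were counted separately was not tested. If they were, the low counts given here, such as the control counts of linc-115, stand for fewer pairs.

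Left out were 12 entries with dates for names (at most 0.0247% of a library's counts). RefSeq WBcel235 matched 99.9% of the other names and gave names, chromosomes, overlaps and neighbours. Exon lengths, exon overlaps and strands came from the Ensembl annotation of WBcel235. No coordinates are given, since the authors' build is unknown, and no sequence was at hand.

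Tests used R 4.3.3 and edgeR 4.0.16 on the 6 y54g2a.18 libraries: filterByExpr (minimum count 10, total 15), TMM scaling, a quasi-likelihood fit on group, and Benjamini-Hochberg adjustment over all tested genes at 0.05. Standard errors are the log2 fold change divided by the root of F. DESeq2 1.42.0, limma 3.58.1 and other settings were alternatives, and the steps were tested on simulated data. Control libraries differed from one another by 24.1 to 66.2 in chi-square per degree of freedom and RNAi libraries by 130 to 183. None was a duplicate, and the RNAi libraries differed more among themselves.

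Genes were named by rule: called members, the 10 highest in mean CPM, members with counts in 1 group, genes beside called members, and list members called. Other members, and called neighbours, were picked after their values were seen. The members and all lists were chosen with earlier results of these data known. The rpoa-49 table (43236 names, 418 counts) shared 12 names with the other table and was not tested.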

Additional observations from a re-analysis of the deposited data

How the results depend on the processing

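The number of lincRNA genes called higher, 2, was 1 with size factors of DESeq2 in edgeR, without a filter, with all genes of 10 or more counts, in limma-voom and with the replicate block, 3 in DESeq2 and with the ribosomal RNA share as a covariate, and 1 to 2 when single libraries were left out. The number called lower, 0, was 1 with a filter of 1 CPM in 3 libraries, 4 in DESeq2, 3 with the ribosomal RNA covariate, and 0 to 4 when single libraries were left out. Over all genes edgeR called 646 to 2097 when single libraries were left out and 2215 with the ribosomal RNA covariate, against 1283. The median log2 fold change ran from -0.31 to -0.052 over the omissions and was -0.18 for genes that overlap no other gene in RefSeq. The ratio of summed CPM ran from 0.879 to 0.971 over the omissions. It was 0.870 for the 85 genes that overlap no other gene in RefSeq. Of 192 values of 12 named genes 173 kept direction and side of the threshold, 10 lost the call (all linc-103) and 7 gained one. The other 2 changed sign and were never called: linc-7, at -0.61 to 0.12 over the omissions (0.12 without RNAi replicate 3), and linc-9, at -0.32 to 0.0054 (0.0054 without RNAi replicate 2). Replicate numbers are shared by the groups, but same-numbered libraries did not deviate together (correlations -0.0064, 0.049 and -0.50), so the block, under which 955 genes were called, is no paired test. For 37 of the 71 genes under 1 CPM counts were too low for a test.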
